A study of Homo sapiens with 9 samples.

Results

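The 14q32 microRNA genes studied here are 50 genes of the imprinted region between DLK1 and DIO3 on human chromosome 14, given as a list of gene names. A probe set was found for 49 of them among the 23931 genes of the table, and 1, MIR770, was not analysed here. The cells were H2009, grown from a human adenocarcinoma of the lung, and the 9 arrays fell into 3 groups of 3 cultures. All groups carry CRISPRa, a Cas9 that cannot cut DNA, fused to the activating domains VP64, p65 and Rta, which a guide RNA brings to a chosen site, and all were grown under blasticidin selection. The first group held the guide sgRNA-A, the second held the guide sgRNA-B, and the control cells held the guide vector with nothing inserted. Each guide is represented by 1 clone, so an effect of a guide and a property of its clone cannot be told apart. The submitters aimed to raise the 14q32 microRNAs with both guides and record that RT-qPCR showed a rise before the arrays were run, and what follows gives what the probe sets of these genes show in the same lines.

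MicroRNAs are short RNAs cut from a hairpin in a longer primary transcript, and the mature strand, loaded into an Argonaute protein, represses messenger RNAs that pair with its seed, bases 2 to 8. At 14q32 the hairpins lie in long non-coding transcripts made from the maternal chromosome, among them MEG3, MEG8, MEG9 and the transcript antisense to RTL1, while DLK1, RTL1 and DIO3 are made from the paternal one. All hairpins of the listed members with a sequence in RefSeq lie on the plus strand of GRCh38.p14. The members fall into a group of 10 measured genes from MIR2392 to MIR370, of which 5 (MIR431, MIR433, MIR127, MIR432 and MIR136) lie within RTL1, and a dense group of 39 from MIR379 to MIR656.

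RefSeq held a hairpin for 46 of the 50 members and 91 mature sequences with 79 different seeds, of which 11 were shared by more than 1 gene. The mature strands below come from the genes whose probe sets stood highest on the arrays, since these are the members with a signal to compare. The seed is in capitals and all are on chromosome 14.
hsa-miR-127-3p: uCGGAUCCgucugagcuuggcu
hsa-miR-127-5p: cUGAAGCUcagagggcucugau
hsa-miR-2392: uAGGAUGGgggugagaggug
hsa-miR-539-5p: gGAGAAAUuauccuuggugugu
hsa-miR-539-3p: aUCAUACAaggacaauuucuuu
hsa-miR-412-3p: aCUUCACCugguccacuagccgu
hsa-miR-541-3p: uGGUGGGCacagaaucuggacu
hsa-miR-134-5p: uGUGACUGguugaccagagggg
The next strands show seeds that members share, so that 1 messenger RNA site can be read by the products of several genes. The products of MIR376A1, MIR376A2 and MIR376B share a seed, as do pairs from MIR300 and MIR381, from MIR487A and MIR154, from MIR379 and MIR411, and from MIR539 (above) and MIR485, while the seed of miR-541-3p (above) is also that of miR-654-5p.
hsa-miR-376a-3p: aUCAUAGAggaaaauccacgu
hsa-miR-376b-3p: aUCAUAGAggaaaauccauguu
hsa-miR-300: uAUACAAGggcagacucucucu
hsa-miR-381-3p: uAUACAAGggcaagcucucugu
hsa-miR-487a-3p: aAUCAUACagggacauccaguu
hsa-miR-154-3p: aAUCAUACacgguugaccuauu
hsa-miR-379-3p: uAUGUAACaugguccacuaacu
hsa-miR-411-3p: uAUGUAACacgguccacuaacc
hsa-miR-485-3p: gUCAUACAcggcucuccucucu
hsa-miR-654-5p: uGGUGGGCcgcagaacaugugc

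Values are RMA levels in log2 units, 1 per probe set and array, with equal distributions on the 9 arrays (median 4.91 each). Correlations between arrays of a group ranged from 0.9970 to 0.9982. Of 10 markers of lung adenocarcinoma and epithelium, 8 stood above silent genes in these cells, EPCAM and the lung transcription factor NKX2-1 among them, and NAPSA and SFTPB, products of mature alveolar cells, did not. By limma's test 2 of the 10 changed: the keratin KRT7 fell by 0.18 log2 units with sgRNA-A (adjusted p = 0.017), and the mucin MUC1 rose by 0.42 with sgRNA-B (adjusted p = 0.0017) and was lower with sgRNA-A than with sgRNA-B (-0.45, adjusted p = 0.0096). Of 13 measured markers of other cell types, 3 stood above silent genes (CD68, COL1A1 and RBFOX3), and 1 of the 13, the lysosomal protein CD68, rose by 0.30 log2 units in sgRNA-A cells (limma adjusted p = 0.009) and by 0.23 in sgRNA-B cells (limma adjusted p = 0.025). Of all genes, 2.18% passed limma's test with sgRNA-A, 3.07% with sgRNA-B and 0.104% between the guides. Among genes standing above silent genes these shares were 3.62%, 5.16% and 0.181%. Whether KRT7, MUC1 and CD68 bear on the members' values was not tested.

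Most 14q32 microRNA genes stood at the level of genes taken to be silent in these cells. Olfactory receptor genes, assumed to be mostly unused here, served as the silent genes: 355 were measured, with a median of 3.75 and a 95th percentile of 4.44 log2 units. The highest, OR4C3, had a mean of 8.80, so not every one of these probe sets read as silent. Of the 49 members, 39 lay at or below 4.44 and 25 lay below the olfactory median. The median member measured 3.73, at the 11.6th percentile of all genes. By group, the median member stood at 3.75 in sgRNA-A cells, 3.72 in sgRNA-B cells and 3.74 in control cells, where 10, 9 and 10 members lay above the level of silent genes of their own group. Probe sets differ in how strongly they bind and a level is not an amount, so each place is a description of the signal. In a bulk culture, fewer cells that make an RNA and less of it per cell cannot be told apart.

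**Figure D1:**
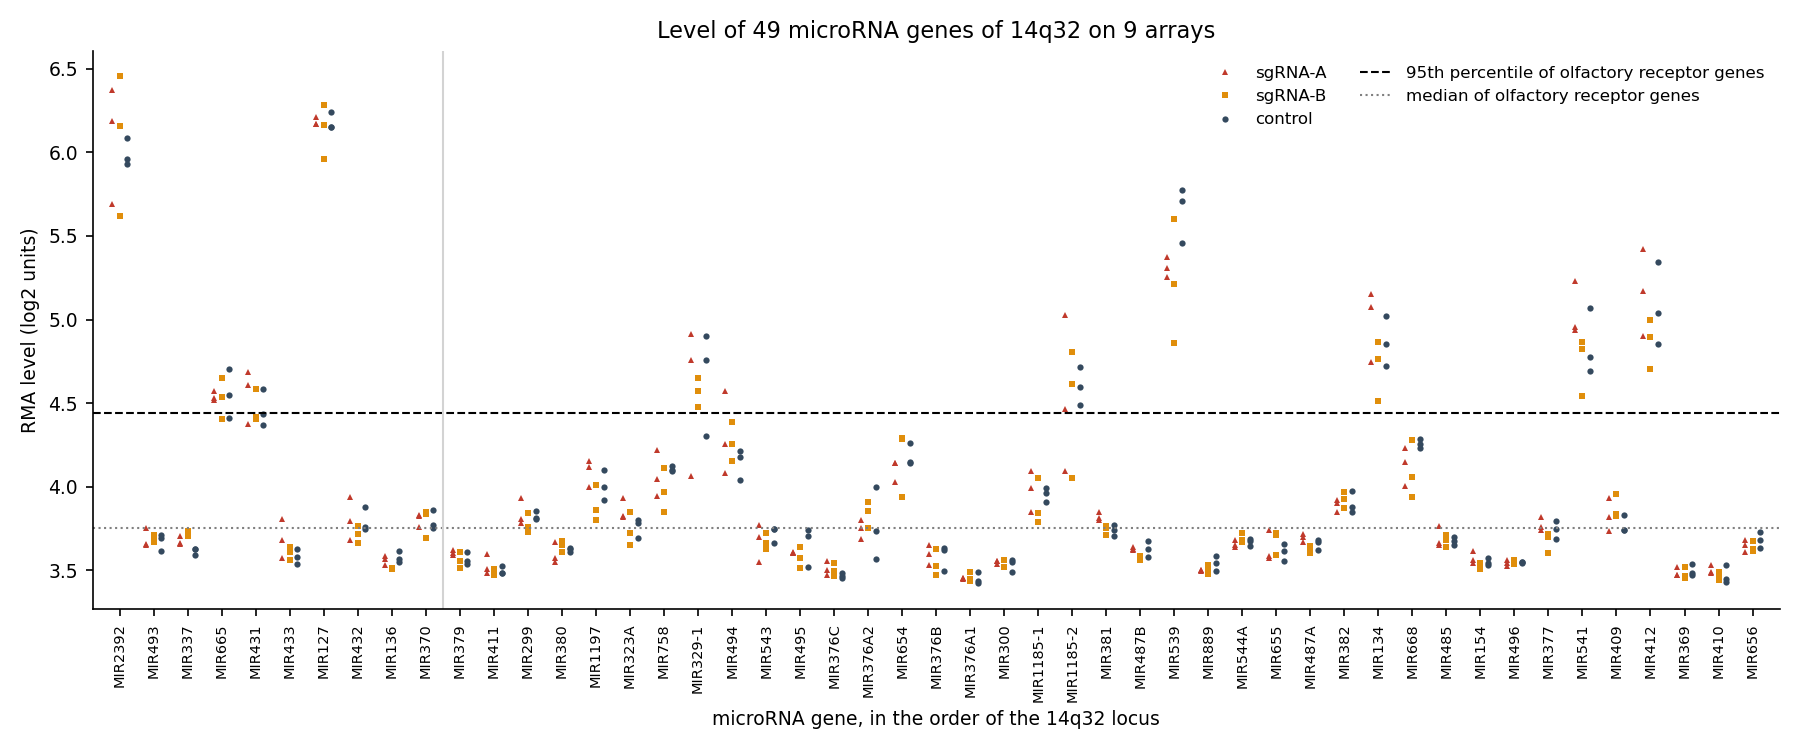
Levels of the 49 measured genes in the order of the locus (RMA, log2 units), with 3 arrays each for sgRNA-A (triangles), sgRNA-B (squares) and control (circles); the grey vertical line separates the 10 genes up to MIR370 from the 39 from MIR379 on. Most points lie near the dotted olfactory median of 3.75, and 6 genes lie above the dashed level of 4.44 on all arrays.

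Of the members, 20.4% lay above the level of silent genes, against 24.7% of 1031 microRNA genes outside the locus and 57.7% of all genes. The members' median lay below that of the outside microRNA genes, 3.82. The 41 small nucleolar RNA genes that share the locus's transcripts (SNORD112, SNORD113 and SNORD114 families) had a median of 3.60 and none above the level. The C19MC cluster, a primate-specific microRNA cluster of the placenta, together with MIR371A, MIR371B, MIR372 and MIR373, had a median of 3.65 and 2 of 40 above. Genes of microRNAs known as abundant in epithelial cancer cells were often as low. Among 26 such genes that were measured, 6 lay above the level, with a median of 4.07. MIR21 led them with a mean of 6.66, whereas MIR200B and MIR200C, whose products maintain the epithelial state, lay below 4.44. Whether these probe sets follow the mature microRNA was not tested.

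**Figure D2:**
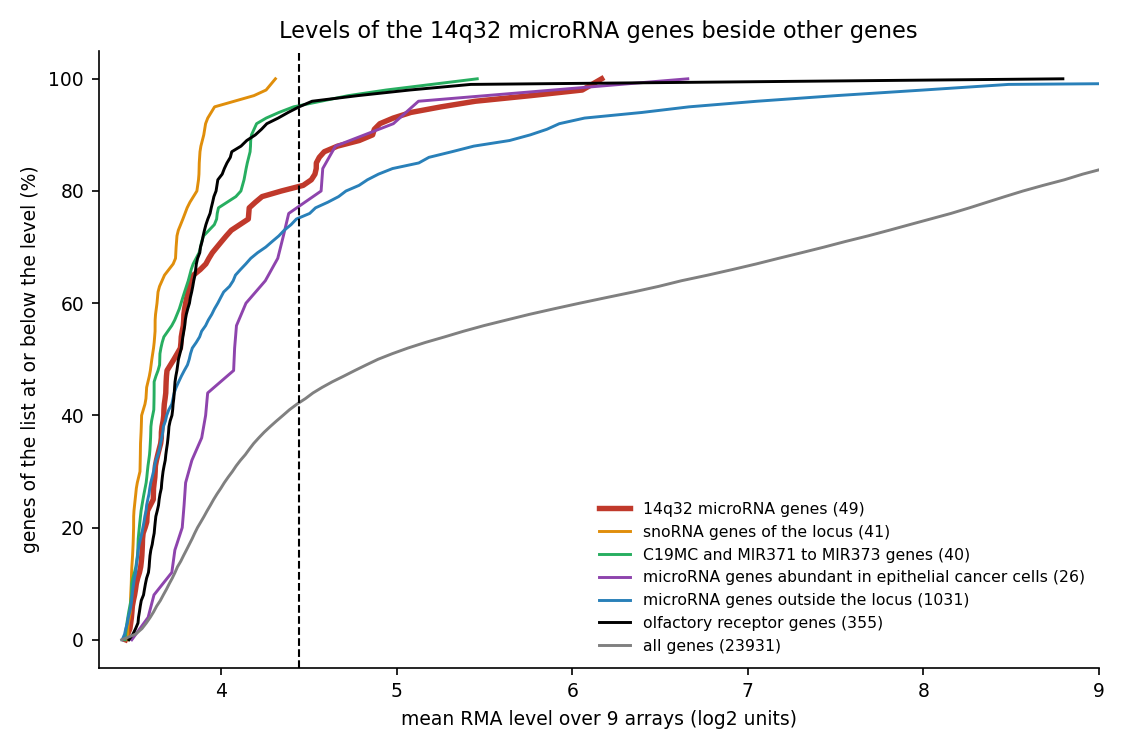
Share of each gene list (vertical axis, %) at or below a given mean level over 9 arrays (horizontal axis, log2 units, drawn up to 9), with the level of silent genes at 4.44 as a dashed line. Up to 65% of the genes, the curve of the 14q32 genes lies close to that of the olfactory receptor genes, at slightly lower levels. From there it mostly runs below it, with 10 genes beyond the line.

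Of 7 measured host and neighbour genes of the cluster, 6 also lay at or below the level of silent genes. The 7 had a median of 3.95, against 3.73 for the members, with DLK1 at 4.26 and DIO3 at 3.91. The non-coding RNA MEG3, host of MIR770, had a mean of 3.60, MEG8 4.18, MIR381HG 3.95, and RTL1, a gene derived from a retrotransposon, 3.80. MEG9 stood at 4.47, just above the level of silent genes, at 4.54 ± 0.08 with sgRNA-A, 4.41 ± 0.08 with sgRNA-B and 4.45 ± 0.05 in control cells (SD, n = 3). Of the 7 measured genes (these with DLK1 and DIO3), 0 passed limma's test with either guide (0 at an unadjusted p below 0.05). Of all genes, 2.18% passed with sgRNA-A and 3.07% with sgRNA-B. Among genes at or below the level of silent genes, 0.217% passed with each, and 5.35% and 5.54% had an unadjusted p below 0.05. For MEG3 all sgRNA-A arrays lay below all control arrays, and for RTL1 above them. Such arrays without overlap were seen for 17.8% of all genes with sgRNA-A and 10.4% of those at or below the level. The 3 other microRNA genes of the locus that were measured were MIR1193 at 3.62, MIR329-2 at 3.62 and MIR1247, next to DIO3, at 6.96.

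The group up to MIR370 held the brightest members. Of its 10 genes, 4 lay above the level of silent genes, against 6 of the 39 from MIR379 on. MIR127, whose hairpin is antisense to RTL1 and whose product miR-127-3p was reported to repress the transcription factor BCL6, measured 6.17, 6.21 and 6.17 in sgRNA-A cells, 5.96, 6.28 and 6.16 in sgRNA-B cells and 6.15, 6.15 and 6.24 in control cells. The groups overlapped, and the means differed by 0.00 between sgRNA-A and control (95% interval -0.23 to 0.23) and by -0.05 between sgRNA-B and control (-0.27 to 0.18). MIR2392, which lies nearest to DLK1, measured 6.19, 6.38 and 5.69 in sgRNA-A cells, 6.16, 5.62 and 6.46 in sgRNA-B cells and 5.93, 5.96 and 6.08 in control cells. Its control arrays lay within the range of each guide, and its SD was 0.35 in sgRNA-A cells and 0.42 in sgRNA-B cells, against 0.08 in control cells.

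MIR665 measured 4.53, 4.57 and 4.52 in sgRNA-A cells, 4.65, 4.40 and 4.53 in sgRNA-B cells and 4.70, 4.41 and 4.55 in control cells. MIR431 measured 4.61, 4.38 and 4.69 in sgRNA-A cells, 4.58, 4.40 and 4.42 in sgRNA-B cells and 4.58, 4.44 and 4.37 in control cells. MIR665 lay above the level of silent genes on 6 of 9 arrays and MIR431 on 4, each array against its own level. The mean of MIR431 was above it with sgRNA-A and in control cells and below it with sgRNA-B, the only such case among the members. MIR337, MIR433, MIR432 and MIR136, which lie close by, had means from 3.55 to 3.77.

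From MIR379 on, MIR539 was the highest member. It measured 5.31, 5.38 and 5.25 in sgRNA-A cells, 5.60, 4.86 and 5.21 in sgRNA-B cells and 5.77, 5.46 and 5.71 in control cells. All sgRNA-A arrays lay below all control arrays, while 1 sgRNA-B array lay among the control arrays. MIR412 measured 5.17, 4.90 and 5.42 in sgRNA-A cells, 4.70, 5.00 and 4.89 in sgRNA-B cells and 5.34, 5.04 and 4.85 in control cells. Its groups overlapped. MIR541 measured 4.96, 4.94 and 5.23 in sgRNA-A cells, 4.54, 4.82 and 4.87 in sgRNA-B cells and 4.69, 4.78 and 5.07 in control cells, with every sgRNA-A array above every sgRNA-B array. MIR134, whose product limits the kinase Limk1 in rat neurons, measured 5.15, 5.08 and 4.75 in sgRNA-A cells, 4.87, 4.76 and 4.51 in sgRNA-B cells and 4.72, 4.86 and 5.02 in control cells, with overlapping groups. These 4 genes, with MIR127 and MIR2392, were the 6 members above the level of silent genes on all 9 arrays.

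MIR329-1 and MIR1185-2 crossed the level from array to array. MIR329-1 measured 4.76, 4.92 and 4.06 in sgRNA-A cells, 4.48, 4.65 and 4.57 in sgRNA-B cells and 4.76, 4.30 and 4.90 in control cells. MIR1185-2 measured 4.10, 4.46 and 5.03 in sgRNA-A cells, 4.05, 4.80 and 4.61 in sgRNA-B cells and 4.49, 4.72 and 4.59 in control cells. It had the widest range of all members over the 9 arrays, 0.97 log2 units. MIR494 was the highest member below the level, at a mean of 4.24, with 1 array above it.

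The probe sets of near-identical copies read different signals. The hairpins of MIR1185-1 (chr14:101042977-101043062) and MIR1185-2 (chr14:101044198-101044283), both 86 bases on the plus strand of GRCh38.p14, differ at 2 positions, in capitals here.
MIR1185-1: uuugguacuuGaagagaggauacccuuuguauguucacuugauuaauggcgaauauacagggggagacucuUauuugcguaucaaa
MIR1185-2: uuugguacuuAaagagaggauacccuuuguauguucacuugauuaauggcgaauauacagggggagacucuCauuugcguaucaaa
MIR1185-1 measured 3.85, 3.99 and 4.09 in sgRNA-A cells, 3.84, 4.05 and 3.79 in sgRNA-B cells and 3.91, 3.99 and 3.96 in control cells, a mean of 3.94 against 4.54 for its copy. Likewise MIR329-1 had a mean of 4.60 and MIR329-2 3.62. Their aligned hairpins were 94.0% identical. The 5 differing positions include the longer ends of the MIR329-2 hairpin, which has 84 bases against 80. Probe sequences were not used here, so how such copies share signal is uncertain. The genes with the seed of miR-376a-3p also ranged from 3.45 for MIR376A1 through 3.57 for MIR376B to 3.78 for MIR376A2, all at the level of silent genes. Of the 19 genes with a shared seed, MIR539, MIR541 and MIR1185-2 lay above it.

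The remaining members lay below MIR494. MIR376A1 was the dimmest, at a mean of 3.45, below every olfactory receptor gene, and measured 3.45 on each sgRNA-A array, 3.44, 3.49 and 3.45 with sgRNA-B and 3.42, 3.49 and 3.43 in control cells. MIR410 followed at 3.53, 3.49 and 3.49 in sgRNA-A cells, 3.47, 3.44 and 3.49 in sgRNA-B cells and 3.45, 3.43 and 3.53 in control cells. In all, 35 members had means below 4 log2 units. Among them were MIR379 (3.58) and MIR411 (3.51), which open the dense group, MIR154 (3.55), MIR495 (3.61), MIR493 (3.68), MIR370 (3.80) and MIR409 (3.82).

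The spread between arrays went with the level. The SD pooled over the 3 groups had a median of 0.05 over the 39 members at or below the level of silent genes and 0.20 over the 10 above it. Across the 49 genes, which are not independent replicates and come from the same arrays, the pooled SD and the mean level correlated at Pearson's r = 0.75 (Spearman rho = 0.83). Of the 49, 41 varied by less than 0.5 log2 units over the 9 arrays and 0 by more than 1.

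The level also went with base composition, in the locus and outside it. Over 45 measured members with a hairpin in RefSeq, level and the share of G and C in the hairpin correlated at r = 0.46 (rho = 0.43), and over 840 microRNA genes outside the locus at r = 0.53 (rho = 0.69). Without MIR2392 and MIR127, the 2 brightest, the members' r was 0.34 (rho = 0.37, n = 43). Members above the level of silent genes had a median of 53.6% G and C (9 with a sequence), and those below it 41.1% (36). Of 5 members with at least 55% G and C, 4 lay above the level, as did 57.9% of the 254 outside genes of that composition. MIR539 stood apart from this pattern, with 30.8% G and C and a mean of 5.39. In hairpins with 25% to under 40% G and C, 2 of 18 members (MIR539 and MIR1185-2) and 3.33% of 150 outside genes lay above the level. Length of the hairpin and place in the locus went less closely with level (r = 0.14 and r = -0.17). These correlations are descriptions across genes, which share the same arrays and include near copies.

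**Figure D3:**
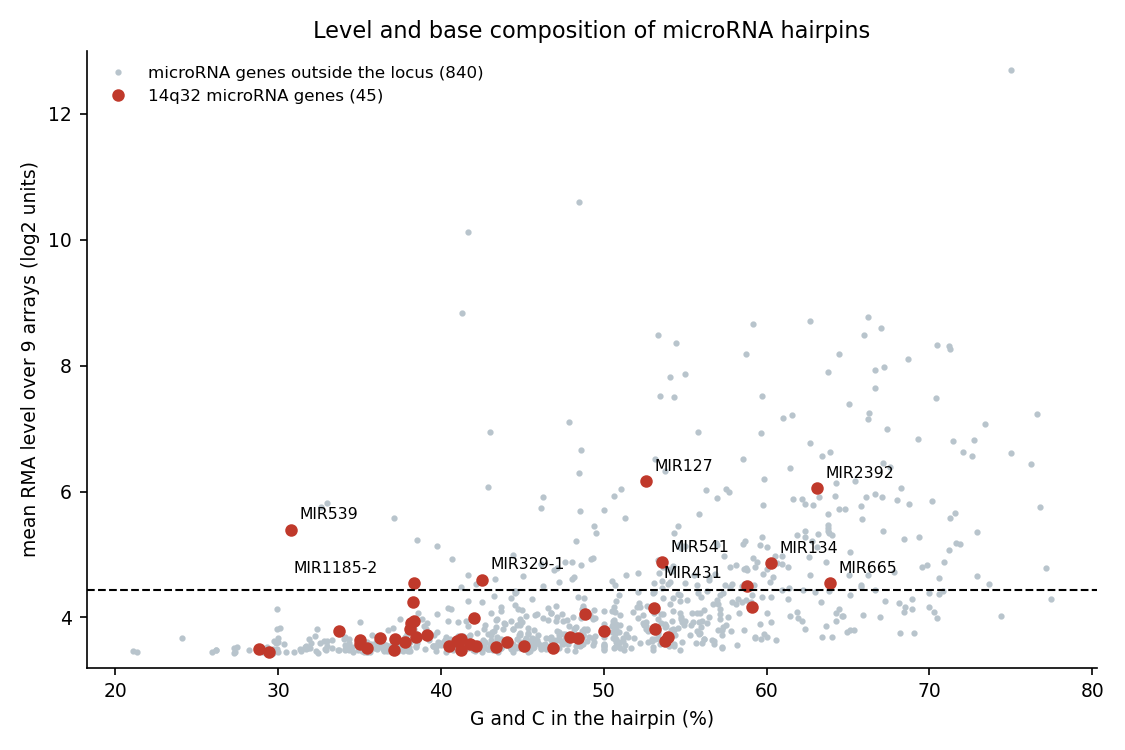
Mean level over 9 arrays (vertical axis, log2 units) against the share of G and C in the hairpin (horizontal axis, %) for 45 of the 14q32 genes (red) and 840 other microRNA genes (grey); the dashed line is the level of silent genes. The named genes above the line mostly lie at over 50% G and C, and MIR539 at 30.8%.

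No 14q32 microRNA gene was higher or lower in either guide line by limma's test. With sgRNA-A against control, 0 of 49 members had an adjusted p below 0.05, and 0 had an unadjusted p below 0.05, where 2.18% of all genes were called and 13.4% had an unadjusted p below 0.05. Among genes at or below the level of silent genes, where most members lie, 0.217% were called and 5.35% had an unadjusted p below 0.05. Of microRNA genes outside the locus 0.194% were called. The members' log2 differences ranged from -0.34 to 0.19 with a median of 0.01, against 0.00 for all genes, and 30 of 49 (61.2%) were above 0, against 51.7% of all genes. MIR539 came nearest to the threshold, at 5.31 ± 0.06 with sgRNA-A and 5.65 ± 0.17 in control cells (SD, n = 3), a log2 difference of -0.34 (SE 0.16; limma adjusted p = 0.398).

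Next came MIR381, MIR433 and MIR323A. MIR381 measured 3.85, 3.82 and 3.80 in sgRNA-A cells, 3.75, 3.77 and 3.71 in sgRNA-B cells and 3.70, 3.77 and 3.74 in control cells (sgRNA-A minus control 0.08, limma adjusted p = 0.400). All its sgRNA-A arrays were above all others. MIR433, whose product was reported to repress GRB2 and HDAC6, measured 3.81, 3.68 and 3.57 in sgRNA-A cells, 3.64, 3.61 and 3.56 in sgRNA-B cells and 3.63, 3.54 and 3.58 in control cells, with overlapping groups (0.10, limma adjusted p = 0.411). Its difference was 0.05 without sgRNA-A replicate 1 and 0.16 without sgRNA-A replicate 3. MIR323A measured 3.83, 3.82 and 3.93 in sgRNA-A cells, 3.65, 3.72 and 3.85 in sgRNA-B cells and 3.80, 3.70 and 3.78 in control cells (0.10, limma adjusted p = 0.490). For this gene the sgRNA-A arrays were above the control arrays and overlapped those of sgRNA-B.

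With sgRNA-B against control, 0 of 49 members were called by limma, where 3.07% of all genes were, as were 0.217% of those at or below the level of silent genes and 0.582% of microRNA genes outside the locus. An unadjusted p below 0.05 was seen for 3 members, 1 higher and 2 lower, or 6.12% against 14.7% of all genes (7.42% higher and 7.32% lower). Among genes at or below the level of silent genes that share was 5.54%. The log2 differences ranged from -0.42 to 0.12 with a median of -0.02, against -0.00 for all genes, and 18 of 49 (36.7%) were above 0, against 48.4% of all genes. MIR337 had the smallest adjusted p. It measured 3.71, 3.66 and 3.66 in sgRNA-A cells, 3.74, 3.70 and 3.72 in sgRNA-B cells and 3.59, 3.63 and 3.63 in control cells, so that every array of both guides lay above every control array. The log2 difference of sgRNA-B from control was 0.11 (SE 0.03; limma adjusted p = 0.135) at a level below the olfactory median. MIR337 was the only member whose 6 guide arrays did not overlap the control arrays. That was the case for 8.26% of all genes and 2.64% of those at or below the level of silent genes.

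MIR539 followed with sgRNA-B at a log2 difference of -0.42 (SE 0.16; 5.22 ± 0.37 with sgRNA-B and 5.65 ± 0.17 in control cells, n = 3; limma adjusted p = 0.219). MIR136 measured 3.53, 3.56 and 3.58 with sgRNA-A, 3.51 on each sgRNA-B array and 3.57, 3.61 and 3.55 in control cells, with every sgRNA-B array below the others (sgRNA-B minus control -0.07, limma adjusted p = 0.327). MIR668 measured 4.23, 4.0 and 4.15 in sgRNA-A cells, 3.94, 4.28 and 4.06 in sgRNA-B cells and 4.26, 4.23 and 4.28 in control cells (sgRNA-B minus control -0.17, limma adjusted p = 0.410). Its sgRNA-A arrays reached up to the lowest control array without overlap, and its sgRNA-B arrays overlapped the control. The sgRNA-B difference of MIR668 was -0.09 without sgRNA-B replicate 1 and -0.26 without sgRNA-B replicate 2. Both guides were set against the same control arrays, so the 2 differences of a gene are not independent.

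Arrays without overlap between a guide and control were seen for 5 members with sgRNA-A (10.2%, against 17.8% of all genes) and for 2 with sgRNA-B (4.08%, against 20.2%). With sgRNA-A, MIR323A, MIR337 and MIR381 lay above control and MIR539 and MIR668 below. With sgRNA-B, MIR337 lay above and MIR136 below. These shares were lower than those of all genes in both comparisons. Among genes at or below the level of silent genes they were 10.4% and 11.5%.

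**Figure D4:**
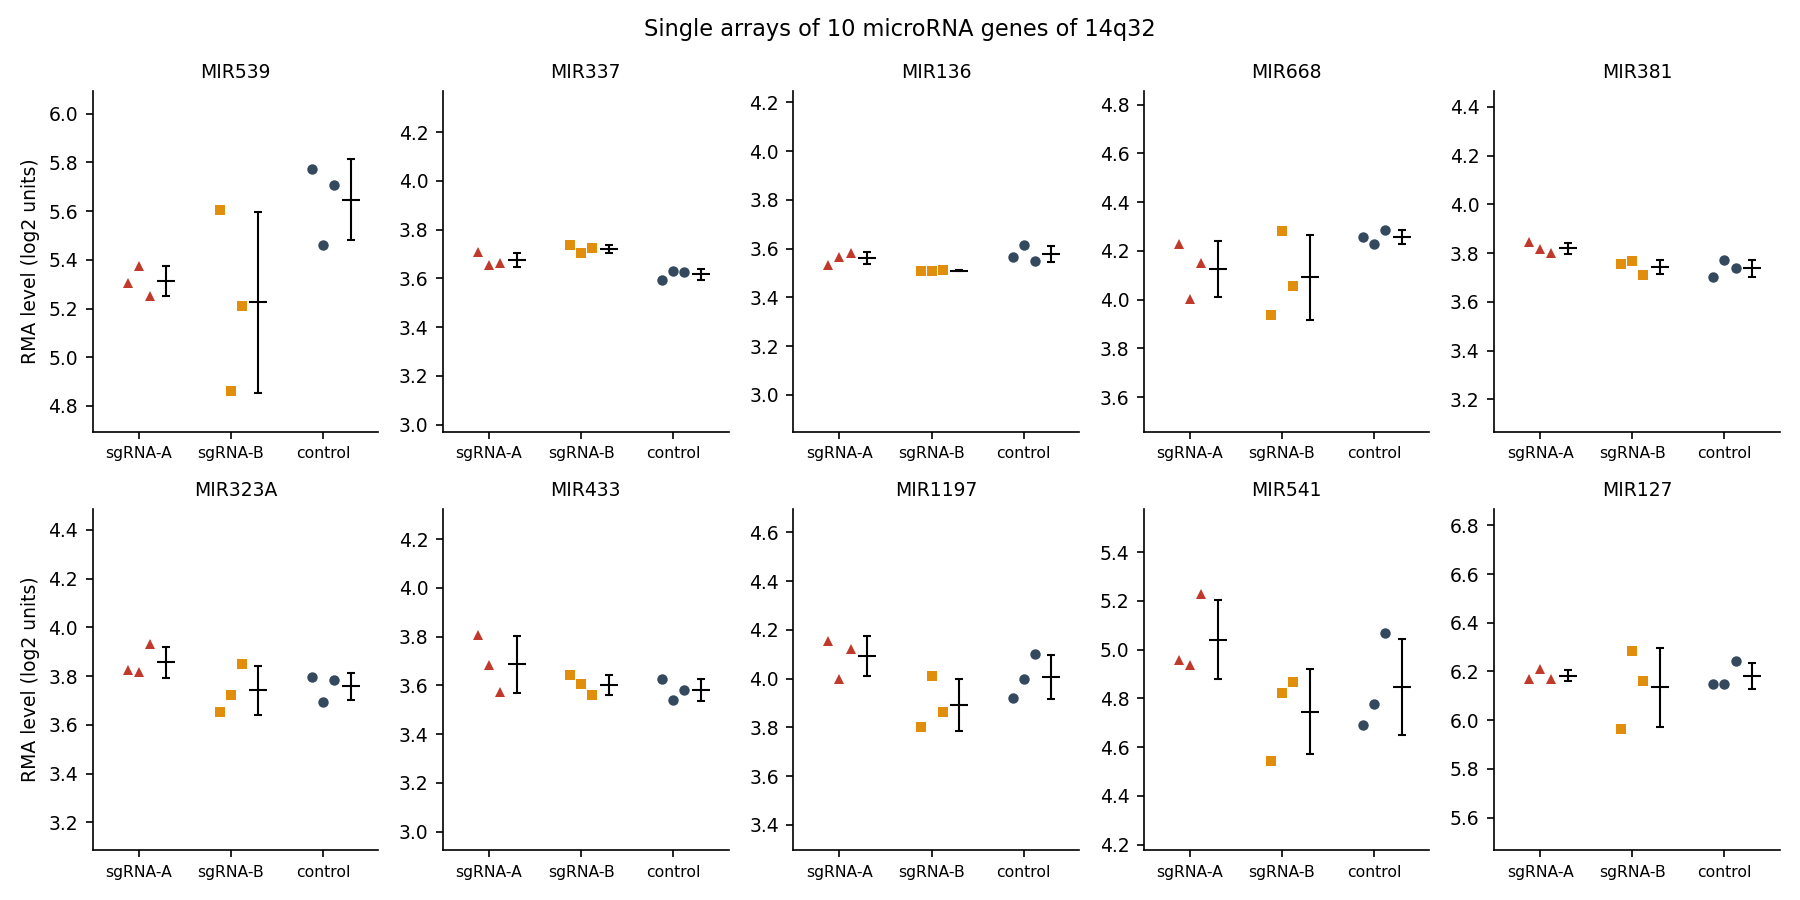
RMA levels (log2 units) on single arrays of sgRNA-A (triangles), sgRNA-B (squares) and control (circles) for 10 members, with mean and SD of 3 arrays beside each group; every panel spans the same 1.4 log2 units. The differences between groups are small beside the panel height, largest for MIR539, and MIR127 shows groups with means of 6.18, 6.14 and 6.18.

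How large a rise of the signal the arrays leave room for follows from the intervals of the differences. With sgRNA-A, the upper limit of the 95% interval had a median of 0.12 over the members and was highest for MIR2392, at 0.52, a ratio of 1.44. With sgRNA-B the median was 0.09 and the highest limit, also that of MIR2392, was 0.51, a ratio of 1.43. In each comparison 48 of 49 upper limits were below 0.5. These limits are unadjusted and hold for the signal of the probe set. Whether a change in the amount of RNA would move the signal was not tested for any member. Of the 49, 39 lay at or below the level of silent genes.

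**Figure D5:**
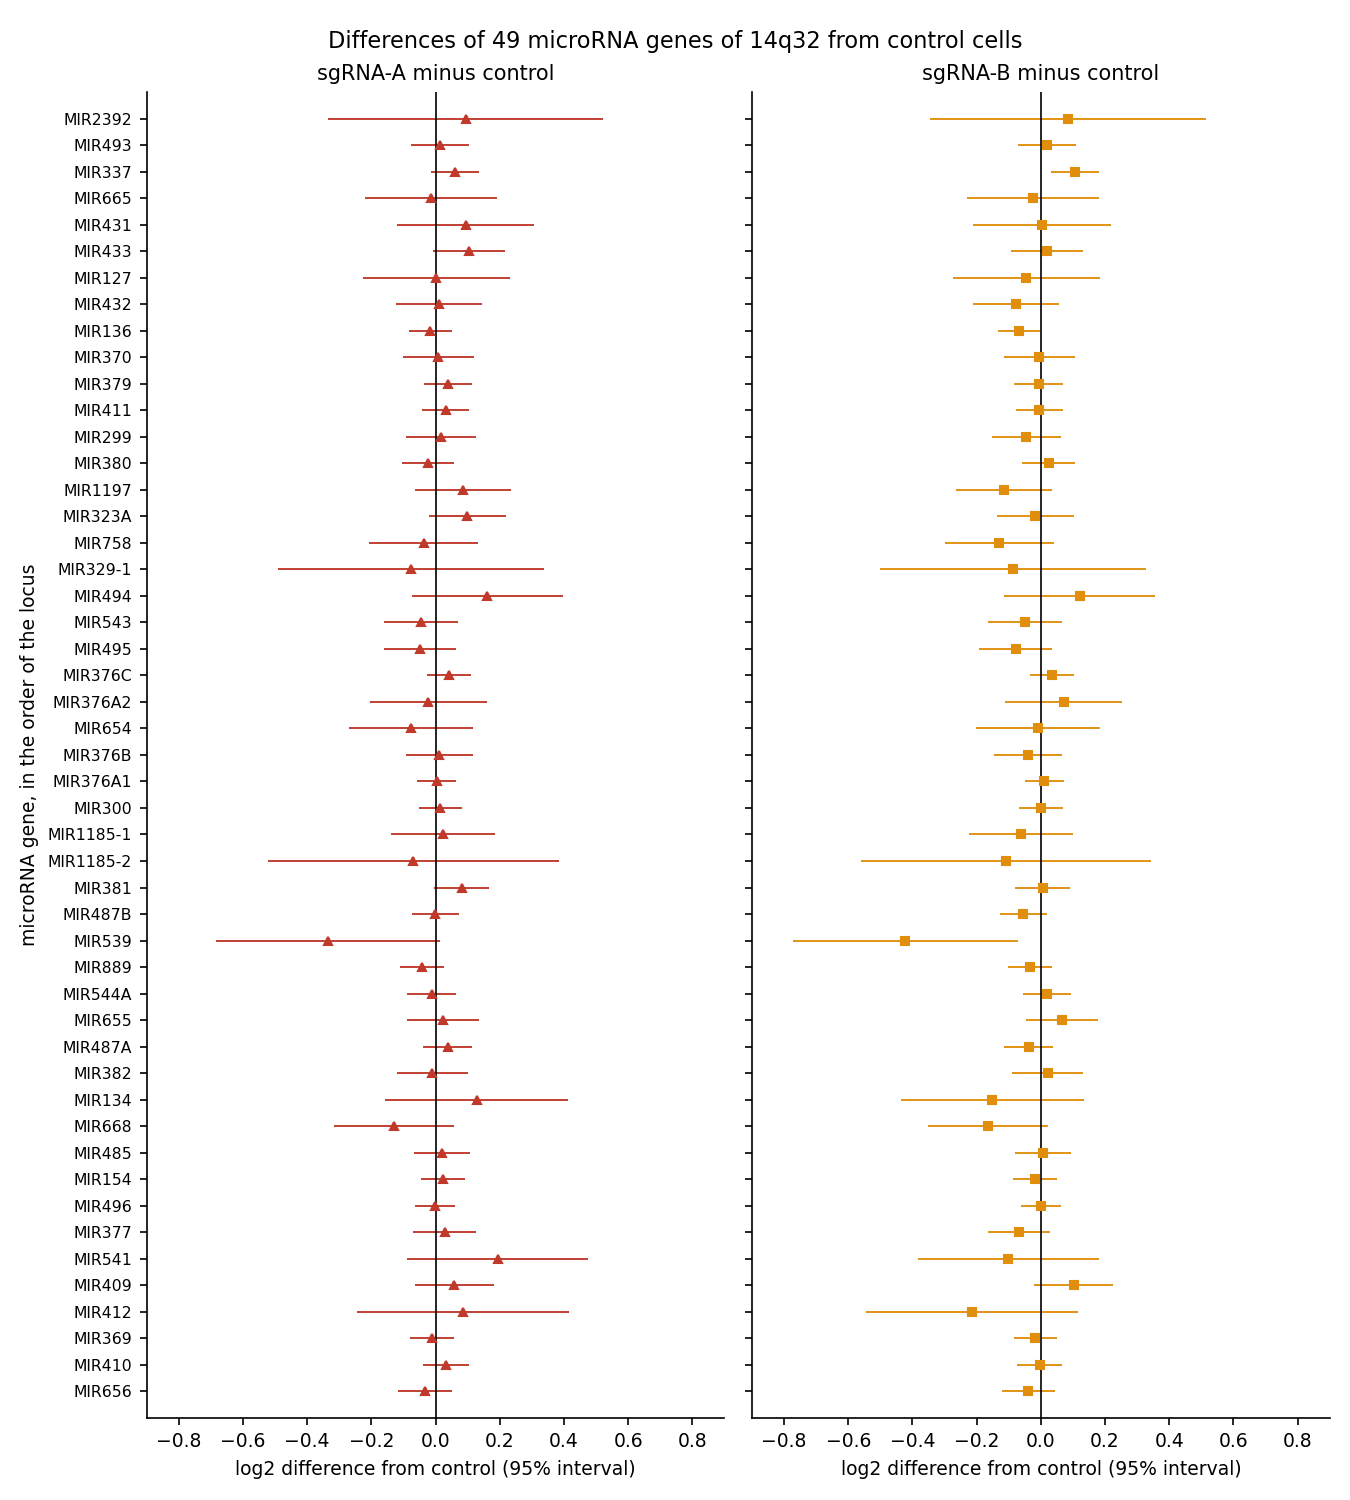
Log2 differences from control (horizontal axes) with 95% intervals of the limma fit for the 49 genes in the order of the locus (vertical axis), sgRNA-A at left and sgRNA-B at right. All points lie between -0.42 and 0.19, and the interval excludes 0 with sgRNA-B for MIR337, MIR539 and MIR136 before adjustment.

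Between the guides, 0 of 49 members were called by limma, where 0.104% of all genes were, and 2 had an unadjusted p below 0.05. By unadjusted p, 10.5% of all genes were below 0.05, and 6.8% of those at or below the level of silent genes. Differences of sgRNA-A minus sgRNA-B had a median of 0.04, against 0.00 for all genes, and 37 of 49 (75.5%) were above 0, against 52.1% of all genes. MIR1197 had the smallest p, with 4.15, 4.0 and 4.12 in sgRNA-A cells, 3.80, 4.01 and 3.86 in sgRNA-B cells and 3.92, 4.0 and 4.10 in control cells (sgRNA-A minus sgRNA-B 0.20, limma adjusted p = 0.341). For MIR541 the difference was 0.30 (limma adjusted p = 0.452). With the mean of both guides set against control, 0 members were called, where 3.57% of all genes were. In that comparison 2 members, MIR337 and MIR539, had an unadjusted p below 0.05, where 15% of all genes did (limma adjusted p = 0.182 and 0.194). Among genes at or below the level of silent genes 5.08% did.

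MIR377 measured 3.76, 3.74 and 3.82 in sgRNA-A cells, 3.70, 3.60 and 3.72 in sgRNA-B cells and 3.75, 3.79 and 3.69 in control cells (sgRNA-A minus sgRNA-B 0.10, limma adjusted p = 0.477). MIR487A measured 3.67, 3.72 and 3.70 in sgRNA-A cells, 3.60, 3.62 and 3.64 in sgRNA-B cells and 3.62, 3.67 and 3.68 in control cells (0.08, limma adjusted p = 0.477). For both, the sgRNA-A arrays lay above the sgRNA-B arrays, as they did for 6 members, or 12.2%, against 8.56% of all genes (15.9% in either direction). In either direction the members' share was also 12.2%, against 11.7% of genes at or below the level of silent genes.

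Messenger RNAs reported elsewhere as targets of these microRNAs did not pass the test, apart from 1 with each guide. Of 18 measured, 1 rose, 0 fell and 17 did not pass with sgRNA-A (median log2 difference 0.00), where 2.18% of all genes were called, and 0 rose, 1 fell and 17 did not pass with sgRNA-B (median 0.04), where 3.07% were. An unadjusted p below 0.05 was seen for 4 of the 18 in each comparison, against 13.4% of all genes with sgRNA-A and 14.7% with sgRNA-B. Of the 18 targets, 14 lay above the level of silent genes. Among all genes above it, 19.3% with sgRNA-A and 21.5% with sgRNA-B had an unadjusted p below 0.05. Of those genes, 3.62% and 5.16% were called. FOXM1, a cell-cycle transcription factor reported as a target of miR-370, rose with sgRNA-A to 10.09 ± 0.02, against 9.87 ± 0.02 in control cells (log2 difference 0.22; limma adjusted p = 0.0225), and had 10.04 ± 0.08 with sgRNA-B (0.18, limma adjusted p = 0.0568). FOXM1 was not called with sgRNA-A without any 1 of the 3 sgRNA-A replicates or without control replicate 1 or 3 (limma adjusted p = 0.0577 to 0.0822), nor without the variance trend (limma adjusted p = 0.0616). IGF1R, the receptor of insulin-like growth factors and a reported target of miR-493, fell with sgRNA-B to 8.78 ± 0.10, against 9.12 ± 0.09 in control cells (-0.33; limma adjusted p = 0.0207), and had 8.96 ± 0.11 with sgRNA-A (-0.15, limma adjusted p = 0.365). IGF1R was not called without sgRNA-B replicate 1 or 2 or control replicate 1 or 3 (limma adjusted p = 0.0810 to 0.0913), nor without the variance trend (limma adjusted p = 0.0571). The difference of the guides at IGF1R did not pass the test (limma adjusted p = 0.402). With the mean of both guides against control, which uses the same arrays, FOXM1 (0.20, limma adjusted p = 0.0127) and IGF1R (-0.24, limma adjusted p = 0.0445) passed. In that comparison 3.57% of all genes were called, and 5.95% of those above the level of silent genes. PRPS1 did not pass with sgRNA-B (0.20, limma adjusted p = 0.0584) or sgRNA-A (0.14, limma adjusted p = 0.260). BCL6, LIMK1, GRB2 and HDAC6 did not pass with either guide, with log2 differences of -0.13, 0.01, 0.07 and 0.15 with sgRNA-A and 0.08, 0.04, 0.05 and 0.23 with sgRNA-B.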

How the data were processed

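The table holds log2 levels deposited by the authors, 1 per probe set and array, made with RMA, per the submitters' processing notes; the version and build are not given in the sources used here. Sorted values of the 9 arrays differed by at most 0.00187, so a shift of a whole array is not visible.

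Of 24733 rows, 23934 carried 1 gene symbol and 799 none. For 3 symbols with several probe sets the brightest was kept, leaving 23931 genes. limma 3.58.1 (R 4.3.3; lmFit, eBayes with a variance trend) was run on all 9 arrays with Benjamini-Hochberg adjustment over all genes, and a gene changed at an adjusted p below 0.05. The fit was also run on simulated data with independent noise, which held no effect of clone or array and so cannot test for one. The error of the fit is that between cultures of 1 clone a group. Sequences and gene order come from RefSeq, GRCh38.p14.

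Members and lists were chosen with earlier results of these data known. Values on every array are given for members above the level of silent genes, the 4 smallest p-values of each comparison, members whose guide and control arrays did not overlap, and the 2 dimmest; MIR1185-1 was added as a near copy. Alternatives left out each array, or changed the block, variance prior, weights, filter, normalization or level of silence.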

Additional observations from a re-analysis of the deposited data

How the results depend on the processing

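In all 83 refits of the 4 comparisons, 0 members were called by limma, with a lowest adjusted p of 0.0553 (mean of both guides against control, without sgRNA-B replicate 1). With the replicate number as a block the count was also 0 in each comparison, and that block changed no call of a member. Same-numbered arrays of different groups deviated together at r = -0.145 to 0.135, with 1 of 9 pairs over 0.1. Of 18 matches of an array to another group, 10 were best by number. These values do not settle whether the numbers mark pairs, and the main fit did not take them as pairs. Without each array in turn, the median log2 difference of the members ranged from 0.006 to 0.022 for sgRNA-A against control, from -0.027 to -0.012 for sgRNA-B against control, from 0.022 to 0.039 between the guides, and from -0.006 to 0.005 for the mean of both guides. MIR539 with sgRNA-B ranged from -0.61 without sgRNA-B replicate 1 to -0.24 without sgRNA-B replicate 2. MIR323A with sgRNA-A was 0.06 without sgRNA-A replicate 3, and between the guides MIR541 was 0.20 without sgRNA-B replicate 1 and MIR377 0.06 without sgRNA-B replicate 2.

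Leaving out dim genes removed most members: 13 remained without the dimmest 30% and 4 without the dimmest 50%. The median was then -0.086 (30%) and -0.130 (50%) for sgRNA-B, and, at 50%, 0.044 for sgRNA-A, 0.067 between the guides and -0.043 for the mean of both, over fewer genes. The count of all genes called depends more on single arrays. For sgRNA-A it was 522, against 223 without control replicate 1, 269, 321 and 254 without sgRNA-A replicate 1, 2 and 3, 115 without moderation, 321 with the compared groups alone and 788 without the dimmest 50% of genes. For sgRNA-B it was 735, against 353, 400 and 459 without sgRNA-B replicate 1, 2 and 3, 413 and 453 without control replicate 1 and 3, and 227 without moderation. Between the guides it was 25, against 6 to 12 without an array of either guide, 39 without the dimmest 50% and 0 without moderation, and for the mean of both guides 855, against 405 and 496 without control replicate 1 and 3 and 351 without moderation. Of the members' medians, the others moved by less than the SD between replicates, 0.023.

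The count above silent genes rests on the level chosen. With the 99th percentile of olfactory receptor genes it was 2 over all arrays, 2 with sgRNA-A, 2 with sgRNA-B and 3 in control cells. With taste receptor, keratin-associated protein and defensin genes it was 2 in each, and against the median of outside microRNA genes it was 18, 21, 19 and 18. Signals near the lowest of the table limit what any of these comparisons can show.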
